A study of Mus musculus with 4 samples.

Results

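The Krüppel-like factor (KLF) genes examined here were Klf2, Klf3, Klf4, Klf5, Klf6, Klf7, Klf9, Klf10, Klf13 and Klf15, 10 of the 21755 protein-coding genes on the autosomes and the X chromosome, taken by name from a list chosen with earlier results of these data known. The mark was H3K27ac, an acetyl group on histone H3 that marks active promoters and enhancers, mapped by ChIP-seq in left cerebral cortex tissue of female B6CASTF1/J mice, the F1 hybrids of C57BL/6J with CAST/EiJ, at an age of 2 months. All 4 samples belong to this 1 group: pool I and pool J, each of 4 biosamples and each sequenced as 2 technical libraries. There was no second tissue, treatment or genotype, so no contrast was tested, and each pool gave 1 peak list, so the values below carry no replicate error. The lists give no read numbers, so the depth behind them is unknown.

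KLF proteins are transcription factors that bind GC-rich and CACCC-type DNA through zinc fingers at their C-terminal end, and most act as activators or repressors through partner proteins. In neurons the family is known for its effect on axon growth: Klf6 and Klf7 promote it, and Klf4 and Klf9 restrain it. Klf9 is also a hormone-response gene, induced by thyroid hormone and glucocorticoids, and Klf2 and Klf4 are known from the endothelium, where blood flow induces them.

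Peaks came from the replicated list of 72027 peaks on mm10, the mouse assembly also called GRCm38, with genes from GENCODE vM21 basic. A TSS peak reached within 1000 bp of an annotated transcription start site (TSS) of the gene. A gene body peak overlapped the rest of the gene, and a flanking peak lay outside the gene but within 100 kb of it. The signal of a peak is the authors' peak caller's own value. A TSS signal percentile is the place of the gene's highest TSS peak among all protein-coding genes, on a scale where a gene without a TSS peak stands at 20.8 and the median gene at 50. The tissue holds many cell types, so a mark carried by fewer cells and a weaker mark in each cell cannot be told apart.

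Markers of the tissue's cell types were read at their promoters, where 58.5% of all coding genes had a TSS peak. All 5 excitatory neuron markers had a TSS peak, among them Neurod6 at a signal of 10.8 and Camk2a at 14.03, as did 3 of 6 interneuron, 3 of 4 astrocyte, 3 of 4 oligodendrocyte, 3 of 4 microglia and 6 of 6 endothelial markers. Of the pericyte and smooth muscle markers 1 of 4 had one, and 0 of 3 erythroid, 0 of 2 choroid plexus and 0 of 2 meningeal markers did. The endothelial signals lay between 2.47 at Tek and 4.49 at Flt1, and those of the marked interneuron and microglia genes in a like range, between 2.44 at Cx3cr1 and 4.09 at P2ry12. Those of the marked astrocyte genes ran from 3.67 at Aqp4 to 13.85 at Slc1a2. The marked oligodendrocyte genes ran from 3.77 at Mog to 10.25 at Mbp, and the marked pericyte gene Pdgfrb had 4.87. Between the pools, the list of pool I was longer by a factor of 1.40 in peaks and of 1.81 in covered length.

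All 10 KLF genes carried a TSS peak, against 58.5% of protein-coding genes in the same list, and all 10 also carried one in either pool's own list. In that of pool J the share of all coding genes was 55.2%. Their highest TSS signals ran from 5.45 at Klf2 to 31.4 at Klf7, with a median of 13.1, against 8.86 for all coding genes with a TSS peak. The median TSS signal percentile of the 10 was 87.7, against 50 for all coding genes. Klf7, Klf13, Klf6 and Klf9 stood in the top 5% of coding genes, and Klf2 at percentile 53.7 and Klf5 at 64.4 were the lowest.

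**Figure D1:**
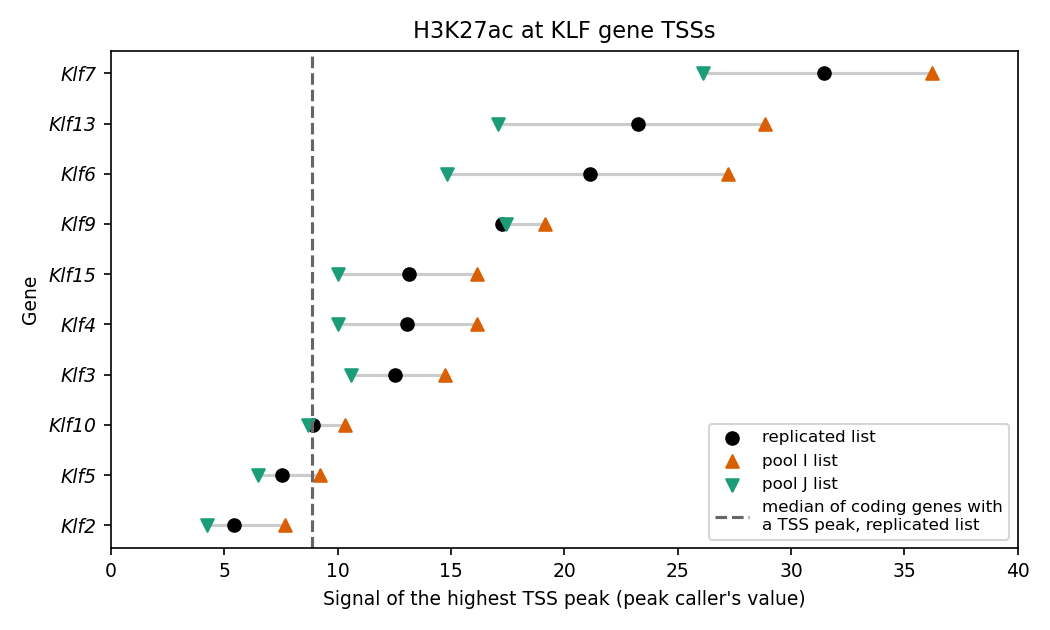
The signal of the highest TSS peak (horizontal axis, the peak caller's value, no unit) is plotted for each KLF gene in the replicated list (circles), the pool I list (upward triangles) and the pool J list (downward triangles), each on its own list's scale. Klf7 leads in all 3 lists and Klf2 is lowest in all 3, and the dashed line marks the median of 8.86 over coding genes with a TSS peak in the replicated list.

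Klf7 had the strongest promoter acetylation of the family and one of the strongest in the genome. Its highest TSS peak (chr1:64121765-64123112) had a signal of 31.4, rank 11 of 21755 coding genes, next to Gpr19 at rank 10 (31.5) and Map7d1 at rank 12 (31.4). This peak had a signal of 36.2 in pool I and 26.1 in pool J, at percentiles 99.97 and 99.98 of the peaks of those lists. A second TSS peak (chr1:64116590-64121517) was 4928 bp wide and reached into the first exon and intron with a signal of 15.3. The TSSs of Klf7 lay at the upstream edge of this wide peak, and a gap of 247 bp without a peak, from positions −273 to −27, separated it from the higher peak upstream. These starts are those of the basic annotation. The gene record itself reaches to 64122282. The summit of the higher peak at 64122033 is therefore upstream of both basic starts and yet inside the gene record.

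A layout similar to that of Klf7, and also found at Klf13 (below), was present at the TSS of Klf6, the other member known to promote axon growth. A compact peak of 918 bp upstream (chr13:5860377-5861294) had a signal of 21.1, with 27.2 in pool I and 14.8 in pool J, and put the gene at percentile 98.5 of coding genes. A peak of 5316 bp (chr13:5861483-5866798) began directly after the TSS with a signal of 8.54, and the TSS itself lay in a gap of 188 bp between them. Further peaks followed to the 3′ end, so that 92.6% of the 8913 bp gene was covered by peaks.

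The promoter stretches of Klf6 and Klf7 are shown because both genes have their summit upstream of their basic starts. They are read from the RefSeq promoter table for GRCm38.p6, which held 8 of the 10 genes and not Klf5 and Klf10, and are cut to the part upstream of every basic start, which for Klf7 still lies inside the gene record. Each is printed 5′ to 3′ on the gene's strand, with GC boxes (CCGCCC) and CACCC boxes of either strand in capitals, joined where they overlap. The Klf6 stretch is chr13:5861239-5861481 on the plus strand, inside the gap for most of its length. The Klf7 stretch is chr1:64121492-64121639 on the minus strand.
Klf6: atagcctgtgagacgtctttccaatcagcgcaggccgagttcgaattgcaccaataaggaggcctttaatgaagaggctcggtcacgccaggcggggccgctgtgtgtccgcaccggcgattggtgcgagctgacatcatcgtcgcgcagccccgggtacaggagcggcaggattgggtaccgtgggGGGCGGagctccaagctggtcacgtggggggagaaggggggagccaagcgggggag
Klf7: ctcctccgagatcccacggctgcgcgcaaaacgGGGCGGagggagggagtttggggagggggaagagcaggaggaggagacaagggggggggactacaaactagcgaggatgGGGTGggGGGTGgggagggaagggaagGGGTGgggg

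The Klf6 stretch held 1 GC box and 0 CACCC boxes, and the Klf7 stretch 1 GC box and 3 CACCC boxes.

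Klf9 stood out through a second strong peak upstream of its promoter. Its single TSS peak (chr19:23139786-23145582) was 5797 bp wide, the widest TSS peak of the family, with a signal of 17.3, and of 19.2 in pool I and 17.4 in pool J. A flanking peak with its summit 5431 bp upstream of the TSS (chr19:23132829-23137918) was 5090 bp wide and had a signal of 18.5, above that of the TSS peak, with 26.0 in pool I and 16.3 in pool J. In the pool J list the order was the other way, 16.3 upstream against 17.4 at the TSS. This peak also covers the short long non-coding RNA gene 2410080I02Rik, and the Klf9 TSS is the nearest coding start to its summit. A further pair of peaks lay 83619 and 84315 bp upstream, with signals of 10.3 and 6.86.

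Downstream, 8 gene body peaks followed the Klf9 promoter, and 56.7% of the 26909 bp gene was covered. Together with its neighbours spaced by at most 1000 bp, the TSS peak formed a block of 6 peaks and 13402 bp. Klf6 had a block of 5 peaks and 11641 bp. These were the 2 of 10 genes with a block of at least 10 kb, against 1.41% of coding genes with a TSS peak. In the pool J list 0 of 10 had such a block, and 0 of 10 when peaks had to reach a −log10 q of 5. The median block was 5464 bp for the 10 genes and 1597 bp for all coding genes with a TSS peak.

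The Klf9 promoter and the distal summit are shown because the 2 regions had like signals. The promoter stretch is chr19:23140976-23141225 on the plus strand, from the RefSeq promoter table. The distal stretch takes 75 bases on either side of the summit, chr19:23135720-23135870 on the plus strand, read from the GRCm38.p6 genome. Capitals mark the same boxes as above.
Klf9: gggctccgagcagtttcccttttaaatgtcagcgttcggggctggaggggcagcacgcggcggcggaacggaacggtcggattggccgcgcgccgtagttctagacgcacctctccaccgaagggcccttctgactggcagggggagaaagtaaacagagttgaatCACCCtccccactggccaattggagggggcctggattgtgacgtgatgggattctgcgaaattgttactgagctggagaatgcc
Klf9 distal summit: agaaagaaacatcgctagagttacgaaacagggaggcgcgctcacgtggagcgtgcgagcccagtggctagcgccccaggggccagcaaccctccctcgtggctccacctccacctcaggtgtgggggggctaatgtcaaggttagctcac

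The Klf9 promoter held 1 CACCC box and 0 GC boxes, and the distal summit held 0 of either.

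Klf13, the closest relative of Klf9 among these genes and known as a partner of the Sin3 corepressor, had the most gene body peaks per length of the 10 genes, 4.57 in each 10 kb. Its outermost TSS lay beside a peak of 1449 bp upstream (chr7:63939199-63940647) with a signal of 23.2, rank 189 among coding genes, and of 28.9 in pool I and 17.1 in pool J. A peak of 4619 bp followed (chr7:63934483-63939101, signal 16.7) across the outermost and a second TSS, after a gap of 97 bp. The innermost TSS lay under a peak of 4104 bp (chr7:63922945-63927048) with a signal of 11.8.

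Besides these TSS peaks Klf13 held 24 gene body peaks in 52565 bp, and 56.97% of the gene was covered. Among the 1800 coding genes within 20% of its length it stood at percentile 99.97 for gene body peaks, where the median gene had 0. The highest of them (chr7:63894478-63898769, intronic, 4292 bp) had a signal of 14.8, with 17.2 in pool I and 14.6 in pool J, and lay 27636 bp downstream of the nearest Klf13 TSS. The start of the non-coding gene Gm27252 lies under it, on the other strand. It was higher than the TSS peaks of 6 other KLF genes. The coding gene E030018B13Rik is nested in Klf13 on the other strand, and peaks at its TSS counted as gene body peaks of Klf13. Most of the 24 gene body peaks had its TSS, not a Klf13 TSS, as the nearest coding start. For the peak of 14.8 that start was 19623 bp away.

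The outermost Klf13 promoter and the intronic summit are shown because both had high signals far apart in 1 gene. The promoter stretch is chr7:63938916-63939165 on the minus strand, from the RefSeq table, and the intronic stretch, 75 bases on either side of the summit, is chr7:63897159-63897309 on the same strand. Capitals mark the same boxes.
Klf13: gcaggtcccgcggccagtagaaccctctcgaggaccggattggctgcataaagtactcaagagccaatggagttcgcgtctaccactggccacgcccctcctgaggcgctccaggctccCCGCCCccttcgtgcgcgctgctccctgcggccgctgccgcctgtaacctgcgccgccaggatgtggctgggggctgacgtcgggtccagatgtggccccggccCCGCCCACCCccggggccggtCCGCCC
Klf13 intronic summit: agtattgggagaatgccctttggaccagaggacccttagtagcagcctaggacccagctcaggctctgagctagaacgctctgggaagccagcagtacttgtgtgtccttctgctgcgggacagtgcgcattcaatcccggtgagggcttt

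The promoter stretch held 3 GC boxes and 1 CACCC box, and the intronic summit held 0 of either.

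Klf7 had the most gene body peaks of the family, 34 in 92836 bp, and 31.2% of the gene was covered. Among 1273 coding genes within 20% of its length it stood at percentile 99.45, where the median gene had 2. The highest of these peaks had a signal of 5.86 (chr1:64039811-64041897). In Klf13 the next highest after the peak of 14.8 had 6.12, close to that of Klf7. Of the 34 gene body peaks of Klf7, 13 were found in both pool lists and 17 reached a −log10 q of 5. Of the 24 in Klf13, 13 were in both pool lists and 11 reached that value.

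**Figure D2:**
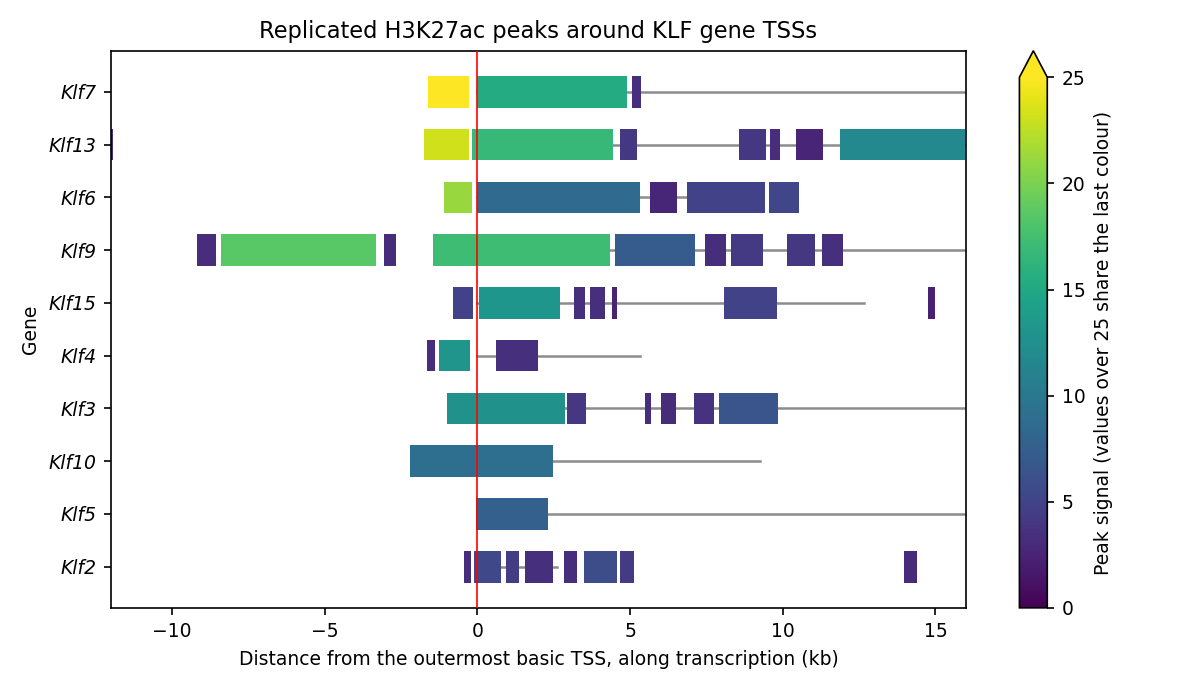
Each row shows the replicated peaks (bars, coloured by signal) of a KLF gene from 12 kb upstream to 16 kb downstream of its outermost basic TSS (red line), with transcription to the right and the gene as a grey line. Klf7, Klf13, Klf6 and Klf4 have their strongest TSS peak upstream of the line, Klf9 has a second strong bar of 5090 bp upstream of its TSS peak, and Klf5 has a single bar.

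Klf4, which restrains axon growth and is a reprogramming factor of stem cells, had a compact upstream peak and little else. The peak (chr4:55532714-55533716) was 1003 bp wide with a signal of 13.05, and of 16.2 in pool I and 10.02 in pool J, which put Klf4 at percentile 87.54 of coding genes. The TSS lay in a gap of 850 bp, the longest among the 10 genes. The peak on its downstream side (chr4:55530474-55531863) had a signal of 3.46 and was in the pool I list and not in the pool J list. Klf4 had 0 gene body peaks and 2 flanking peaks, of which the higher lay 17490 bp downstream of the TSS with a signal of 6.93.

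Klf2, the flow-induced endothelial factor, had the weakest promoter of the 10. Its highest TSS peak (chr8:72318932-72319806) had a signal of 5.45, with 7.70 in pool I and 4.26 in pool J. This was above all 6 endothelial markers examined, of which Flt1 was the highest at 4.49, and the part of endothelial cells in the Klf2 signal was not tested. It was part of a block of 7 small peaks over 5574 bp, which reached past the 3′ end, and 80.8% of the 2624 bp gene was covered. Klf2 was the 1 gene of the 10 whose TSS peaks were wider in pool J, with 824 bp in pool I and 1546 bp in pool J. In the other 9 the pool I width was larger, and over all 10 the ratio of pool I to pool J was 1.26.

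The neighbourhood of Klf2 was dense, with 22 flanking peaks. The highest lay at the TSS of the clathrin adaptor gene Ap1m1 (signal 10.9) and at that of Eps15l1 (signal 10.5), and 11 of the 22 had Klf2 as their nearest coding TSS. Among these the highest (chr8:72322510-72323621) lay 4188 bp downstream of the start with a signal of 5.76, above the 5.45 of the promoter itself.

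The promoter stretches of Klf4 and Klf2 are given for the members known from the endothelium, from the same RefSeq table. The Klf4 stretch is chr4:55532476-55532725 on the minus strand, almost all of it inside the gap described above. The Klf2 stretch is chr8:72318812-72319032 on the plus strand.
Klf4: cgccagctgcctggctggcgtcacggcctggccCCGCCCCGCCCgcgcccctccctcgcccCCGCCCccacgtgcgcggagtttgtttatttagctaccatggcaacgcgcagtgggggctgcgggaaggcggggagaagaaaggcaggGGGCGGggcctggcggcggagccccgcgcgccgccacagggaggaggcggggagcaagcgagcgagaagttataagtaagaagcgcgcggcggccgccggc
Klf2: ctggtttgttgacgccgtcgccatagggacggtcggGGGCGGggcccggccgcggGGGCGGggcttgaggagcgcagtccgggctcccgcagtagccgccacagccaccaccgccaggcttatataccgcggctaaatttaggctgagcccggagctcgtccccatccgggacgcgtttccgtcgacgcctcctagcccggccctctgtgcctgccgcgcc

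Both held GC boxes, 4 in Klf4 and 2 in Klf2, and 0 CACCC boxes.

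Klf3 and Klf10 are known as repressors, Klf3 through the corepressor CtBP and Klf10 as an early gene of TGF-β signalling. Klf3 had a TSS peak of 3843 bp (chr5:64802403-64806245) with a signal of 12.55, and of 14.7 in pool I and 10.6 in pool J. The start of Gm20033, a non-coding gene on the other strand, and of the unclassified transcript C230096K16Rik lie under the same peak, so its signal need not belong to Klf3 alone. An internal Klf3 TSS had a peak of its own (chr5:64811298-64813231, signal 6.45). Only 3 flanking peaks lay within 100 kb, the highest with a signal of 3.77.

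Klf10 had 1 TSS peak of 4668 bp (chr15:38298242-38302909), which spanned both of its TSSs with a signal of 8.91, and of 10.3 in pool I and 8.70 in pool J. It was a wide peak of middling height: its width stood at percentile 98.1 of coding genes with a TSS peak, and its signal at percentile 71.1 of coding genes. In pool J the same region was split into 2 peaks, the wider of 2398 bp. Klf10 had 0 gene body peaks and 9 flanking peaks, of which the highest (chr15:38383718-38385970, signal 10.3) lay 84373 bp upstream at the TSS of the long non-coding RNA gene Gm26863.

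Klf15, a glucocorticoid-induced factor known for its control of amino acid catabolism, had 4 TSSs and the most TSS peaks, 5. The highest (chr6:90462632-90465275) was 2644 bp wide with a signal of 13.15, and of 16.2 in pool I and 10.02 in pool J. The outer TSSs lay in or beside a gap of 185 bp before this peak. On the other side of the gap lay a peak of 659 bp (chr6:90461788-90462446) with a signal of 4.965, found in both pool lists. A start of another gene also lies within 1000 bp of it, so its signal need not belong to Klf15 alone. At the inner TSSs the peaks were low, with signals of 3.47, 3.37 and 2.47, and the lowest was in neither pool list. Of its 15 flanking peaks 7 lay at the TSS of another gene, and the highest was that of Zxdc (signal 8.30). The highest away from other starts (chr6:90505791-90507558) lay 40301 bp downstream with a signal of 7.15. The astrocyte gene Aldh1l1 lies in the same window, with a TSS signal of 3.78.

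Klf5, known from dividing epithelia and smooth muscle, was the most isolated. Its 1 TSS peak (chr14:99298638-99301003, 2366 bp) had a signal of 7.56, and of 9.23 in pool I and 6.49 in pool J. In pool J it was 1216 bp wide. It had 0 gene body and 0 flanking peaks. The nearest other peaks lay 134838 bp upstream and 220834 bp downstream.

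Over the 10 genes the peaks numbered 192, with 22 at TSSs, 74 in gene bodies and 96 in the flanks, and none counted for a pair of members. A gene body peak was found in 7 of the 10 genes, against 32.0% of all coding genes, and a flanking peak in 9 of 10, against 82.5%. Longer genes have more room for peaks, and gene length was not held equal in that share. Among coding genes within 20% of each gene's length, the 7 stood between percentiles 83.09 (Klf15) and 99.97 (Klf13) for gene body peaks. Those with 0 gene body peaks stood between 36.75 (Klf5) and 44.14 (Klf4). The counts of flanking peaks ran from 0 to 22 with a median of 11, against a median of 6 and quartiles of 2 and 14 for all coding genes. Of the 96 flanking peaks 63 had the KLF gene as their nearest coding TSS and 14 lay at the TSS of another gene. Of the 74 gene body peaks 65 had their summit in an intron and 9 in an exon.

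**Figure D3:**
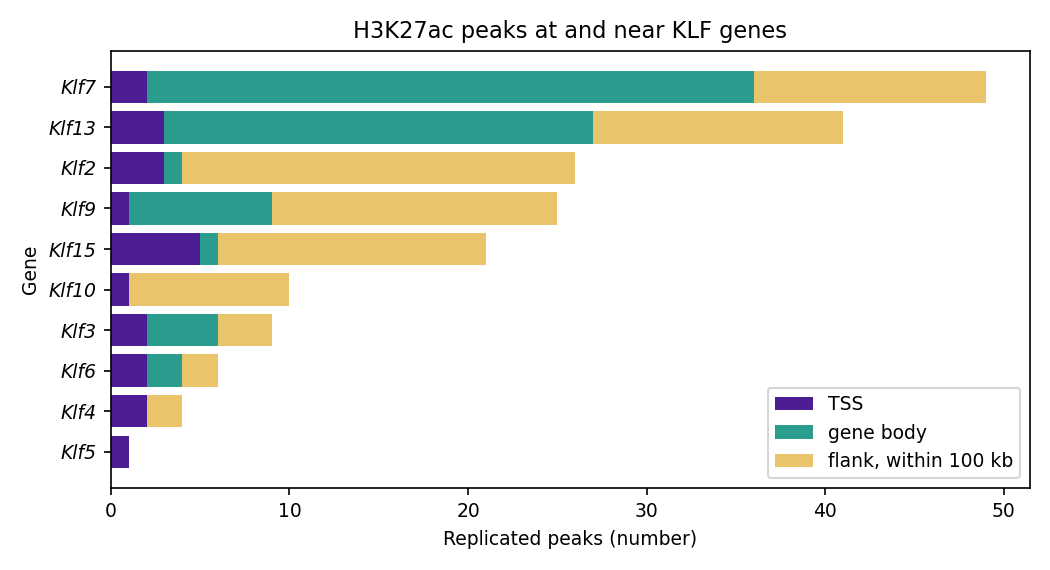
Bars give the number of replicated peaks for each KLF gene at its TSSs, in the gene body and in the flanks within 100 kb. Klf7 with 49 and Klf13 with 41 peaks owe most of them to the gene body, Klf2 with 26 to the flanks, and Klf5 has 1.

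Wide TSS peaks were frequent among these genes. A TSS peak of at least 4000 bp, a width set after the values were seen, was found at 5 of the 10 (Klf6, Klf7, Klf9, Klf10 and Klf13). Among all 21755 coding genes 404 had one (1.86%), and 12719 had a TSS peak of any width. By the widest TSS peak of each gene, the nearest on either side of that width were Klf13 at 4619 bp and Klf3 at 3843 bp. In the pool I list 5 genes and in the pool J list 4 genes had such a peak. Height and width did not go together throughout, since Klf4 had a higher signal than Klf10 and a widest TSS peak of 1390 bp.

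The highest TSS peak had its summit upstream of the outermost basic TSS in 4 of the 10 (Klf4, Klf6, Klf7 and Klf13), against 28.5% of coding genes with a TSS peak. In these 4 the summits lay between positions −542 and −417. In the other 6 they lay downstream, between 135 bp at Klf2 and 892 bp at Klf10. A gap of at most 1000 bp between neighbouring peaks within 500 bp of a TSS was present in 6 of the 10, against 36.9%, and the start itself lay inside it in Klf4, Klf6 and Klf15. In each pool list 6 genes had such a gap, and 4 when peaks had to reach a −log10 q of 5.

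Of the 192 peaks 104 (54.2%) were found in the lists of both pools, against 56.0% of all replicated peaks, a share close to that of the whole list. Another 49 were in the pool I list alone, 8 in the pool J list alone and 31 in neither. The share differed by class: 17 of 22 TSS peaks (77.3%) were in both pool lists, 36 of 74 gene body peaks (48.6%) and 51 of 96 flanking peaks (53.1%). The classes differed in median signal too, with 8.72, 3.47 and 3.48. Shares by class over the whole list were not counted, so whether 77.3% is particular to KLF genes was not tested. Peaks in both lists had a median signal of 4.95 and width of 952 bp, and those in neither had 2.57 and 270 bp. The highest signal among the 31 in neither list was 3.77.

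**Figure D4:**
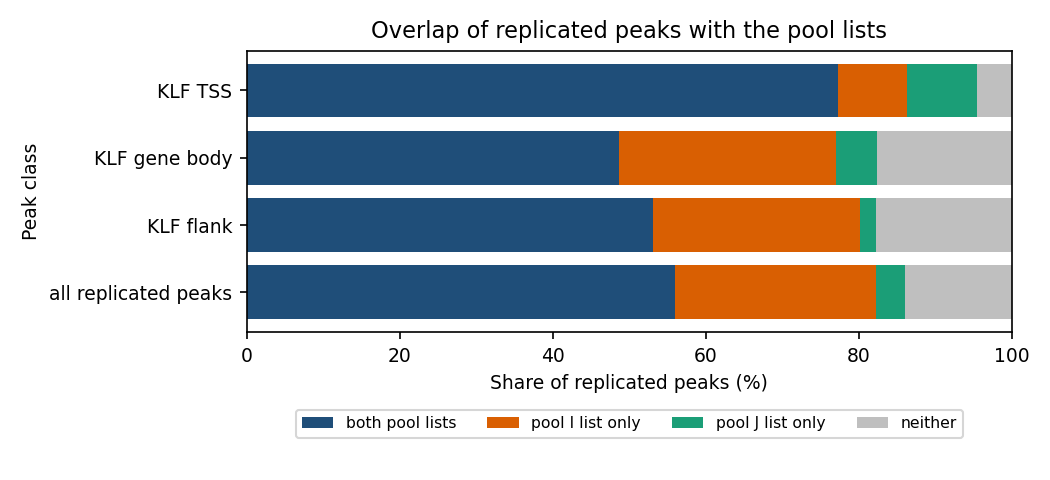
Stacked bars give the share of replicated peaks (percent) that overlap by at least 1 bp a peak in both pool lists, in 1 alone or in neither, for the 3 classes of KLF peaks and for all 72027 peaks. TSS peaks have the largest share in both lists, 77.3%, and gene body peaks the smallest, 48.6%.

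Klf7 had the highest promoter signal of the 10 genes and Klf2 the lowest in either pool's list. In pool I the 10 genes ran from percentile 59 for Klf2 to 99.89 for Klf7 among coding genes, and in pool J from 51.0 for Klf2 to 99.95 for Klf7. Klf9 stood at 94.1 in pool I and 98.3 in pool J, and Klf4 and Klf15 each at 88.98 in pool I and 83.57 in pool J. The lists differ in length, so these places show no change between pools. Neighbours in the order such as Klf4 (13.05), Klf15 (13.15) and Klf3 (12.55) lay closer together than the gap between the pools of any of them.

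The promoter sequences of the 8 genes in the RefSeq table (250 bases before to 50 after the start) were rich in CpG. The ratio of observed to expected CpG had a median of 0.866, from 0.659 at Klf3 to 1.18 at Klf15, against 0.384 over 32851 promoters of 300 bases, and the GC content a median of 70.7%, against 52.7%. The 32851 were all promoters of that length in the table, not selected by gene type or by H3K27ac, whereas all 8 genes had a TSS peak. This holds for the motif shares below as well. Letters were searched on both strands. A GC box was present in 7 of 8, against 35.7% of all promoters, and absent from the Klf9 window. CACCC was present in 6 of 8 (57.5% of all), the shorter cyclic AMP element TGACG in 6 of 8 (20.8%) and CCAAT in 4 of 8 (37.4%). The longer KLF box CCACACCC (3.56%), the full element TGACGTCA (1.79%), the glucocorticoid element ACANNNTGT (6.85%) and TATAAA (13.6%) were in 0 of 8. The GC box shares letters with CACCC where they overlap, TGACG lies within TGACGTCA, and CACCC lies within CCACACCC. GC-rich windows hold GC-rich letters more often, and that part was not tested.

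The Klf3 stretch upstream of both basic starts is shown as the densest in these boxes (chr5:64803271-64803387, plus strand), with 5 GC boxes and 2 CACCC boxes in 117 bases.
Klf3: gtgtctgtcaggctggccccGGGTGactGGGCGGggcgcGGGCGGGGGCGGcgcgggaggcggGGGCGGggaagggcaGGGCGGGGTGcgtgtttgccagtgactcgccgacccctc

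Counts for the other KLF genes and the SP genes stand beside shares of all coding genes of 58.5% in the replicated list and 55.2% in pool J, and no difference from these was tested. Of Klf1, Klf8, Klf11, Klf12, Klf14, Klf16 and Klf17, 5 of 7 had a TSS peak in the replicated list and 4 of 7 in pool J, with a median percentile of 50.7. Klf11, a close relative of Klf10, was the highest with a signal of 17.1, and Klf14 and Klf17 had none. Of the related SP factors, which bind the GC box, 4 of 9 had a TSS peak, and these were Sp1 (14.4), Sp2 (14.6), Sp3 (26.0) and Sp4 (12.55). Sp5 to Sp9 had none in the replicated list.

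The cofactor and upstream genes were marked throughout, beside shares of all coding genes of 58.5% in the replicated list and 55.2% in pool J. All 10 cofactor genes had a TSS peak in the replicated list and in either pool, with a median percentile of 72.5, and the highest were the acetyltransferase gene Ep300 (26.3), the deacetylase gene Hdac2 (18.9) and the corepressor gene Ctbp1 (18.5). All 11 genes that act upstream of KLF genes had one in the same 3 lists, with a median percentile of 93.1. Among them the thyroid hormone receptor genes Thra and Thrb had signals of 26.6 and 17.7, the glucocorticoid receptor gene Nr3c1 15.4 and Mef2a 23.1. The lowest of these upstream genes were Mapk7 (7.10), Map2k5 (9.25) and Nr3c2 (9.63). Of 7 genes known as KLF targets 5 had a TSS peak in the replicated list and 4 in pool J. Their median percentile was 46.8, against 50 for all coding genes. Smad7, which Klf10 represses, had the highest signal of these (14.8), the endothelial genes Nos3 and Thbd had 3.90 and 3.87, and Slc2a4 had none. Absence from a list of peaks is not absence of the mark, since the depth is unknown.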

How the data were processed

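Per the labels, H3K27ac ChIP-seq was done on 2 pools of left cerebral cortex. The authors deposited 4 narrowPeak lists on mm10, made per the file descriptions from both pools (a replicated and a pseudoreplicated list) or from the filtered alignment of 1 pool. The deposited signal of each peak is the peak caller's value, of unstated normalization, and the deposited −log10 p and −log10 q are per peak. The aligner and the peak caller were not stated per the labels, and reads of the CAST/EiJ copy of the genome may map less well to mm10.

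Peaks on 19 autosomes and X were set against GENCODE vM21 basic with Python 3.11.15 and NumPy 2.4.6, in code first checked on simulated peaks. Percentiles count tied values at their middle. Peaks in different lists matched at an overlap of at least 1 bp. The main counts used the replicated list. Alternatives were the other lists, windows of 500 and 2500 bp, the outermost 5′ end, a −log10 q of at least 5, distances of 50 and 200 kb, and overlaps of 50%. The genes, lists and motifs were chosen with earlier results of these data known. The rule for naming genes took all 10, any list gene, the coding genes next to the highest member in the TSS ranking, and genes whose TSS lies at a described flanking peak; Gm27252, C230096K16Rik and Gm20033 were named after their peaks were seen. Widths of 4000 bp, gaps and blocks were defined after the data were seen. The 4 samples were 1 group and no test was run. Values of some list genes are not reported here.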

Additional observations from a re-analysis of the deposited data

How the results depend on the processing

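The number of KLF genes with a TSS peak (10) and their median TSS signal percentile (84.8 to 89.0) held under every list, window and threshold tried. The lists are not independent, since 63593 of the 72027 replicated peaks are identical to a peak of the pseudoreplicated list of both pools. The highest TSS peak of every member had a −log10 q of at least 13.65, so the threshold of 5 could not remove it. Counts of peaks depended on list and threshold. At a −log10 q of at least 5, gene body peaks numbered 37 in place of 74 and flanking peaks 49 in place of 96, since fewer peaks remain. Flanking peaks numbered 85 with the pool I list alone and 59 with the pool J list alone, 60 within 50 kb and 171 within 200 kb. Gene body peaks numbered 63 and 52 with the list of pool I and of pool J. Genes with a block of at least 10 kb numbered 2 in the main count, 2 in the pool I list, 0 in the pool J list and 0 at that q, alternatives chosen after the data were seen. Peaks in both pools numbered 72 at an overlap of 50% of the length of each peak. For single genes, the widest TSS peak in pool J was 1216 bp at Klf5 in place of 2366 bp, 2398 bp at Klf10 in place of 4668 bp and 1316 bp at Klf2 in place of 875 bp. No paired analysis was possible because the samples form 1 group and no result comes from a test. The depth is unknown, so low signals and peaks missing from a list cannot be read as absence.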
